A study of Mus musculus with 6 samples.

Results

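The 8 genes described here belong to the intrinsic (mitochondrial) apoptosis pathway and were followed in retinae of a mouse model of retinoblastoma. They are the anti-apoptotic Bcl2, Bcl2l1 and Mcl1, the effector Bak1, the BH3-only Bid and Bcl2l11, and the apoptosome genes Apaf1 and Casp9. They were found as the rows of the deposited count table whose symbol equals one of these names, which gave 8 of 24062 genes, and all 8 passed the filter on low counts that left 16904 genes to test. RNA-seq libraries came from 3 Rb1/p107/Hells triple knockout (TKO) and 3 Rb1/p107 double knockout (DKO) retinae of C57BL/6 mice (C57BL/6N in the study's methods) at postnatal day 21 (P21), 1 library from each retina. In both groups a Chx10-Cre allele, active in retinal progenitor cells in a mosaic pattern, deleted floxed Rb1 on a p107-/- background, and the TKO retinae also carried floxed Hells alleles that lose exon 12. Every retina therefore lacked p107, lacked Rb1 in the recombined cells and still held cells that had not recombined, and no library with intact Rb1 and p107 was compared here. HELLS is a chromatin remodeling helicase, and the comparison asks which transcripts differ between Rb1/p107-deficient retinae with and without it.

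In the intrinsic pathway, the anti-apoptotic proteins encoded by Bcl2, Bcl2l1 (BCL-XL) and Mcl1 hold the pore-forming effectors BAK (Bak1) and BAX in check at the mitochondrial outer membrane. BH3-only proteins such as BIM (Bcl2l11) and BID tip this balance, the effectors permeabilize the membrane, and released cytochrome c assembles with APAF1 into the apoptosome, which activates the initiator caspase encoded by Casp9 and, through it, the caspases that dismantle the cell. In the developing retina this pathway removes surplus neurons and progenitors, and loss of RB family proteins is known to sensitize many cell types to it through E2F transcription factors.

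Bcl2l11 was the only one of the 8 genes that passed the test, and it was lower in TKO retinae. Its locus lies on chromosome 2 from 128126038 to 128162547 (GRCm38, plus strand, protein coding). RefSeq (GRCm38.p6) holds 2 start sites for it, and the sequences from 250 bases before to 50 bases after each are shown because this is the member whose count changed. The third sequence, of Bcl2l1, is the only 1 of the 11 promoters of the 8 genes with letters of the E2F motif. That motif is of interest where Rb1 and p107 are lost. In lower case with matches in capitals, the capitals mark GTAAACA (the core of the FOXO motif) and GGGCGG (the GC box) in the Bcl2l11 promoters, and TTTCGCGC, an E2F motif read on the reverse strand, in the Bcl2l1 promoter.

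Bcl2l11, chr2:128125788-128126087, plus strand: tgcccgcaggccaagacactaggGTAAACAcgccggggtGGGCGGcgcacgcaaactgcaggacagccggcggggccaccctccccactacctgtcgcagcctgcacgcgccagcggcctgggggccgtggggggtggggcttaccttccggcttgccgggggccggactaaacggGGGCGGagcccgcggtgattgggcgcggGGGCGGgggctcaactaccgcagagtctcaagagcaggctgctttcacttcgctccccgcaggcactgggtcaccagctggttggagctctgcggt

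Bcl2l11, chr2:128127325-128127624, plus strand: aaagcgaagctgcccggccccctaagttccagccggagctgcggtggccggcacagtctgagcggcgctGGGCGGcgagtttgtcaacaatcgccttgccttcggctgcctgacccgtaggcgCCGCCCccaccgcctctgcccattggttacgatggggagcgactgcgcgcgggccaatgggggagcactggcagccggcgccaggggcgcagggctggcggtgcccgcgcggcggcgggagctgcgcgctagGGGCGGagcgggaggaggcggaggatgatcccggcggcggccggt

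Bcl2l1, chr2:152830668-152830967, minus strand: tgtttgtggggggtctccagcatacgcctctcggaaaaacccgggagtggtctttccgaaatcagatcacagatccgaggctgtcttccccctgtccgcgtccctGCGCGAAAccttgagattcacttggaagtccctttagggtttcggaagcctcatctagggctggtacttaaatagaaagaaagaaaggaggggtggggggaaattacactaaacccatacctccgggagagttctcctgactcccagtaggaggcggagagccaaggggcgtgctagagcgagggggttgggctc

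The first Bcl2l11 promoter was 71% G and C, with a CpG ratio (observed over expected) of 0.719, and the second 74% with a ratio of 0.94. Both lay above the medians of 52.7% and 0.384 over all 32851 promoters in the table. So did the promoters of Bcl2, Mcl1, Bak1, Bid, Apaf1 and Casp9 and the Bcl2l1 promoter shown, so this was not particular to Bcl2l11. The other Bcl2l1 promoters did not lie above both medians. Positions count the start site as 1 and the base before it as -1, with no position 0. The FOXO core of the first promoter began at -227 and its GC boxes at -211, -74 and -46. In the second promoter GC boxes began at -181, at -127 (reverse strand) and at 6. Of all promoters, 3.65% held GTAAACA and 35.7% held GGGCGG on either strand, against 1 and 7 of the 11 promoters of the 8 genes. The E2F letters searched were TTTCCCGC, TTTCGCGC, TTTGCCGC and TTTGGCGC on both strands. They occurred in 2.26% of all promoters, and in Bcl2l1 the match began at -145. Among the 53 genes of the wider apoptosis list with a promoter in the table, the E2F letters were present for Bcl2l1, Casp2 and Fadd. GTAAACA and GGGCGG were picked after these sequences had been read, and a match is only a stretch of letters in this window.

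Library totals ranged from 10343907 to 14203098 counts. Hells itself had 60.8, 68.4 and 83.5 normalized counts (counts divided by the scaled library size relative to the mean) in TKO retinae 1, 2 and 3. In DKO retinae 1, 2 and 3 it had 678, 523 and 395, so each library followed its label for Hells. Rb1 was read in every library, at 814, 746 and 682 in TKO and 617, 583 and 572 in DKO retinae. It was higher in TKO retinae by 0.34 on the log2 scale (edgeR adjusted p = 0.0388), without overlap. Rbl1 (p107) had few counts and differed by 0.13 (edgeR adjusted p = 0.839). The share of recombined cells in each retina was not tested. Marker genes of cell types also differed between the groups. All 8 dividing-cell markers were lower in TKO retinae, with summed normalized counts of 1570 to 4022 against 8051 to 15090. All 8 rod markers were higher, summing to 327400 to 666400 against 112000 to 213400. Of 8 microglial markers 5 were lower (1672 to 2922 against 3330 to 5048), and of 6 Muller glia markers 3 were higher (59900 to 64790 against 41760 to 43100). Of the other lists, 2 of 6 cone markers and 1 marker each of bipolar cells, endothelium, RPE, lens and blood were higher. In the amacrine, horizontal, ganglion and other leukocyte lists edgeR called 0 and DESeq2 called 1, 1, 0 and 0 lower. At an unadjusted p under 0.05 from edgeR, 1, 2, 0 and 0 were lower and 0, 0, 1 and 0 higher. At least 5559 of all 16904 genes tested had such a p. Rod markers had the largest sum of all lists in every library, as in a retina. Lens markers summed to 352, 1687 and 298 in TKO retinae 1, 2 and 3 and to 93.17, 89.3 and 93.25 in DKO retinae 1, 2 and 3, without overlap. In TKO retinae these sums were mostly Cryaa, at 299, 1464 and 218 against 11.3, 5.25 and 14.7 in DKO retinae. Bfsp1, Bfsp2, Lim2 and Mip overlapped between the groups and were not called. Y-linked transcripts were read in TKO replicate 1 and DKO replicates 1 and 2 and were at 0 in the other 3 libraries, so both groups held both sexes. In bulk retina, fewer cells of a type and less RNA per cell cannot be told apart. The part of these markers in the results that follow was not tested.

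Across the 8 genes, edgeR's quasi-likelihood test called 0 higher and 1 lower in TKO retinae at an adjusted p of at most 0.05, against 7.35% higher and 9.20% lower of all 16904 genes tested. These were 1243 and 1556 genes, and 778 and 2610 with scaling by total counts in place of TMM. DESeq2 gave the same counts, 0 and 1. At an unadjusted p under 0.05 from edgeR the counts were 0 higher and 3 lower, the latter being Mcl1, Bid and Bcl2l11. Such a p was common, with at least 5559 of all 16904 genes under 0.05. With the study's further criteria of a fold of at least 2 in either direction (1 on the log2 scale) and of at least 10 normalized counts on average, 0 of the 8 were called, where 4.38% of all genes were called lower and 1.97% higher. Fitted log2 fold changes (TKO minus DKO) were below 0 for 7 of the 8 genes, with a median of -0.20, while the median over all genes tested was -0.01. The exception, Bcl2l1, also went below 0 in some alternative fits given with it. For 5 of the 8 genes the groups were fully separate, Mcl1, Bak1, Bid, Bcl2l11 and Casp9, each with every TKO retina below every DKO retina. Such separation was present in 20.6% of all genes with TKO below and in 18.0% with TKO above. The labels name 3 retinae a group without saying whether they came from separate litters. The p-values set the genotype difference against the variation between retinae and treat each retina as independent, which the labels cannot settle.

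**Figure D1:**
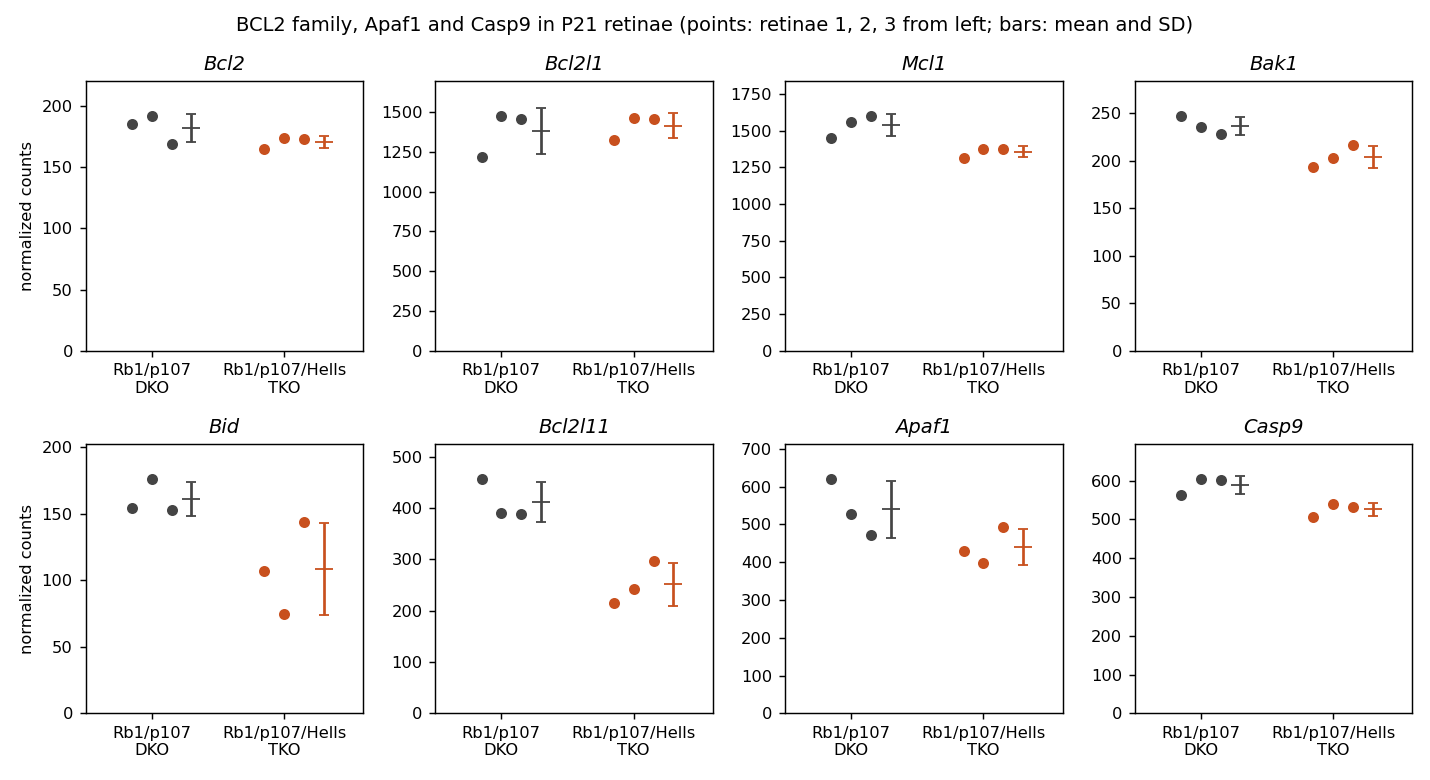
Normalized counts (vertical axes, from 0) of the 8 genes in 3 DKO (grey) and 3 TKO (orange) retinae, with points for replicates 1, 2 and 3 from left to right in each group and a bar for the mean and SD (n = 3). Bcl2l11 shows the clearest gap, with TKO retinae at 214 to 296 and DKO retinae at 389 to 456 normalized counts, and Bcl2, Bcl2l1 and Apaf1 overlap.

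Of the anti-apoptotic genes, Mcl1 and Bcl2l1 were among the most abundant members and Bcl2 was the least abundant. Bcl2 (chr1, 106538178 to 106714274, minus strand), the founding guardian of the family, had 165, 174 and 173 normalized counts in TKO retinae 1, 2 and 3 and 185, 192 and 169 in DKO retinae 1, 2 and 3. DKO replicate 3 lay among the TKO retinae, and the groups overlapped. Between genotypes it differed by -0.09 on the log2 scale (SE 0.124, edgeR adjusted p = 0.638), with an unadjusted 95% interval from -0.38 to 0.19.

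Bcl2l1 (chr2, 152780668 to 152831728, minus strand), which encodes BCL-XL, a main survival protein of neurons, had 1321, 1463 and 1455 normalized counts in TKO retinae and 1215, 1473 and 1457 in DKO retinae. Replicate 1 was the lowest retina in each group and the others were nearly level. The groups differed by 0.03 on the log2 scale with an interval from -0.19 to 0.25 (edgeR adjusted p = 0.843), and its sign turned to -0.05 without DKO replicate 1, to -0.12 when libraries were scaled by their total counts only, and to -0.01 with a term for Y-linked counts. Upper quartile scaling left it at 0.00 (-2.4e-05).

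Mcl1 (chr3, 95658788 to 95663176, plus strand), which encodes a short-lived guardian that binds BIM and BAK, had 1313, 1378 and 1377 normalized counts in TKO retinae and 1452, 1562 and 1599 in DKO retinae. Every TKO retina lay below every DKO retina, by a small margin. The means were 1356 ± 37.1 and 1538 ± 76.4 (SD, n = 3 each), a log2 difference of -0.18 (SE 0.0736), which did not pass after adjustment (edgeR adjusted p = 0.127). With total counts only as the scale, under which the median over all genes went from -0.01 to -0.17, the values were -0.34 for Mcl1 with an edgeR adjusted p of 0.0268.

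The pore-forming effector Bak1 (chr17, 27019810 to 27029009, minus strand) had 193, 203 and 216 normalized counts in TKO retinae and 247, 236 and 228 in DKO retinae. TKO retinae were all lower, with replicate 3 of each group closest to the other group, and the SD was 11.7 in TKO and 9.37 in DKO retinae. The fitted difference was -0.21 on the log2 scale with an interval from -0.48 to 0.05 (edgeR adjusted p = 0.227). Its exons share 614 bp with Ggnbp1 on the opposite strand, which averaged 53.7 normalized counts.

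Bid (chr6, 120891930 to 120916853, minus strand) encodes the BH3-only protein that caspase-8 cleaves, linking death receptors to mitochondria. It had 106.6, 74.7 and 144 normalized counts in TKO retinae and 154, 176 and 153 in DKO retinae. TKO replicate 2 was the lowest retina and TKO replicate 3 almost at the level of DKO replicate 3, so that the coefficient of variation was 31.8% in TKO and 8.04% in DKO retinae. Its fitted difference of -0.58 on the log2 scale (SE 0.229) did not pass (edgeR adjusted p = 0.121). Without TKO replicate 3 it was -0.83 and passed (edgeR adjusted p = 0.0277), and without TKO replicate 2, the lowest retina, it was -0.37 (edgeR adjusted p = 0.287). Exons of Bid share 628 bp with Bcl2l13 on the opposite strand, which averaged 1242 normalized counts, and the strand setting of the counting was not given in the sources used here.

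Bcl2l11 encodes BIM, a BH3-only protein that binds all the anti-apoptotic members and is known to be induced in neurons deprived of survival signals. It had 214, 243 and 296 normalized counts in TKO retinae 1, 2 and 3 and 456, 391 and 389 in DKO retinae 1, 2 and 3. The highest TKO retina, replicate 3, lay well below the lowest DKO retina, also replicate 3. The means were 251 ± 41.2 and 412 ± 38.7 normalized counts (SD, n = 3 each), a log2 difference of -0.71 (SE 0.141, edgeR adjusted p = 0.0142), or 1.64 times more in DKO retinae. The difference kept its sign in all 16 alternative fits, from -0.87 to -0.61. With edgeR its adjusted p was 0.0668 when TKO replicate 2 was left out, 0.0588 for DKO replicate 1 and 0.0542 for DKO replicate 2, so the call was lost in 3 of the 6 fits with 1 retina left out.

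The profile of Bcl2l11 over the 6 libraries was set beside those of 14976 genes with a mean of at least 10 normalized counts. The most alike were Nme2, a nucleoside diphosphate kinase, Hpse, the heparanase, and Rab3d, a small GTPase of secretory vesicles, with root mean square differences of 0.05, 0.05 and 0.06 in log2 normalized counts after centring each gene on its mean. Their log2 fold changes were -0.70, -0.71 and -0.80 (edgeR adjusted p = 0.0151, 0.0323 and 0.0182). These genes were picked for their likeness over both groups, so fold changes near that of Bcl2l11 follow from the choice.

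Apaf1 (chr10, 90989311 to 91082770, minus strand), the scaffold of the apoptosome and a known E2F target, had 430, 397 and 492 normalized counts in TKO retinae and 620.2, 528 and 471 in DKO retinae. TKO replicate 3 exceeded DKO replicate 3, so the groups overlapped. A log2 difference of -0.30 had an interval from -0.59 to 0.00 and did not pass (edgeR adjusted p = 0.153). Without DKO replicate 1 it was -0.18 (edgeR adjusted p = 0.385).

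Casp9 (chr4, 141793612 to 141815976, plus strand), the initiator caspase that the apoptosome activates, had 507, 539 and 533 normalized counts in TKO retinae and 562, 604 and 601 in DKO retinae. All TKO retinae were lower, and TKO replicate 2 came closest to DKO replicate 1. The means of 526 ± 17.0 and 589 ± 23.5 (SD, n = 3 each) gave a log2 difference of -0.16 (SE 0.082, edgeR adjusted p = 0.204). With total counts only the log2 fold change was -0.32 and the adjusted p 0.0443 from edgeR. Its exons share 94 bp with Cela2a and 94 bp with Ctrc on the opposite strand, which averaged 18.5 and 0 normalized counts.

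Levels were compared between genes as counts per kb of annotated exon per 1e6 scaled counts, since longer transcripts give more reads. Mcl1 had the highest level, at 31.4 ± 0.858 in TKO and 35.6 ± 1.77 in DKO (SD over 3 retinae each, as in the values that follow), followed by Bcl2l1 at 24.4 ± 1.38 and 23.8 ± 2.49. Casp9 came next at 8.00 ± 0.258 and 8.96 ± 0.358, then Bak1 at 6.70 ± 0.384 and 7.77 ± 0.308 and Apaf1 at 3.85 ± 0.424 and 4.73 ± 0.661. The BH3-only genes Bcl2l11 and Bid lay lower, at 2.47 ± 0.406 and 4.06 ± 0.381 and at 2.41 ± 0.767 and 3.59 ± 0.288, and Bcl2 was last at 1.47 ± 0.041 and 1.57 ± 0.1002. This order was the same in all 6 libraries except that Bcl2l11 and Bid exchanged places 6 and 7, and these neighbours did not differ beyond their spread. In DKO retinae the levels of Apaf1 and Bcl2l11 overlapped as well. The length used mattered for the order. With the longest annotated transcript in place of all exons, Bcl2l1 came to 43.0 on average over the 6 libraries and stood above Mcl1, at 33.5, in every library. Lower down, Apaf1 then ranged over places 5 to 6, Bcl2l11 over places 5 to 7 and Bid over places 6 to 7.

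**Figure D2:**
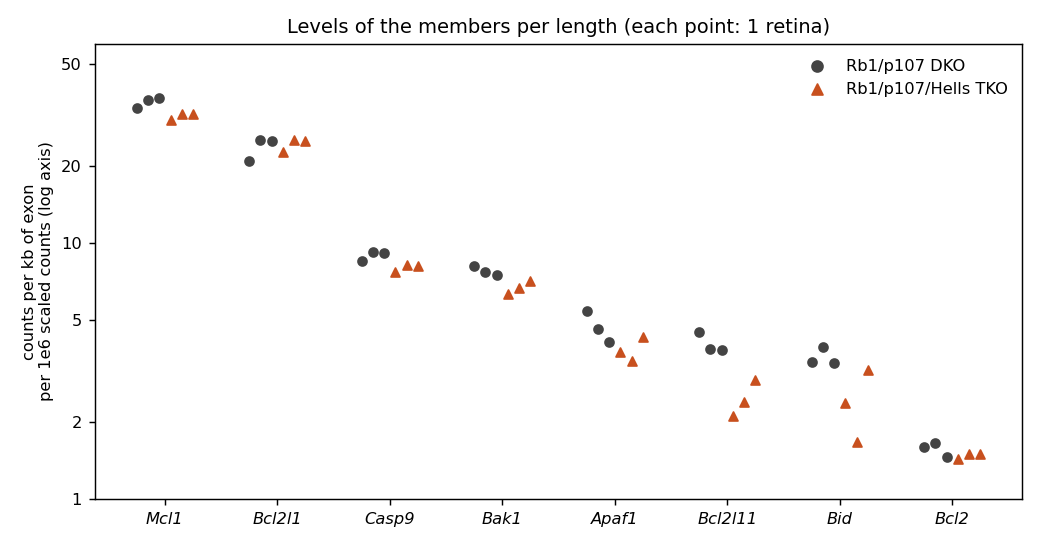
Level of each of the 8 genes per length (counts per kb of exon per 1e6 scaled counts, log axis), with 1 point for each DKO (grey circle) and TKO (orange triangle) retina and genes ordered by their mean. Mcl1 and Bcl2l1 lie above 20 in every retina and Bcl2 lies below 2, while Bcl2l11 and Bid occupy the same range.

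Ratios within a library compare guards with the proteins they hold in check, at the level of transcripts. The log2 ratio of Bcl2l1 to Bcl2l11 per length was 3.43, 3.40 and 3.11 in TKO retinae 1, 2 and 3 and 2.22, 2.72 and 2.71 in DKO retinae 1, 2 and 3, without overlap. The log2 ratio of summed Bcl2, Bcl2l1 and Mcl1 to Bak1 was 3.11, 3.13 and 3.04 in TKO retinae and 2.79, 3.03 and 3.09 in DKO retinae, with DKO replicate 3 inside the TKO range. Bcl2l1 was nearly level between the groups (log2 difference of 0.03). The first ratio therefore mostly repeats the difference of Bcl2l11 (-0.71) from the same counts and is not a separate result. The second ratio leaves out other guards and effectors, among them Bcl2l2 and Bax, at 43.9 and 26.3 counts per kb against 7.24 for Bak1. It therefore does not describe all guards and effectors. These ratios were given no test.

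Around the 8 genes, a list of 62 apoptosis genes that holds them was examined by role. Of these, 58 passed the filter on low counts, and Bcl2a1a, Bcl2l14, Casp14 and Fasl did not. The test called 3 higher (5.17%) and 11 lower (19.0%), against the 7.35% and 9.20% of all genes, and 44 did not pass. Without the 8 genes the counts were 3 higher and 10 lower of 50. The median log2 fold change of the list was -0.24, with 39 genes below 0 and 19 above. Over all genes tested it was -0.01, with 8657 below 0 and 8247 above. DESeq2 also gave 3 higher and 11 lower, although it called Hrk and Bik and not Birc7 and Naip5. Of the 58 genes, 22 had every TKO retina below every DKO retina and 5 had every TKO retina above. Together these were 46.6%, against 38.6% of all genes tested (20.6% below and 18.0% above). The study's full criteria kept 4 lower genes, Casp8, Birc5, Bcl2a1b and Naip5, and 0 higher genes. Of all genes tested they kept 4.38% as lower and 1.97% as higher.

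**Figure D3:**
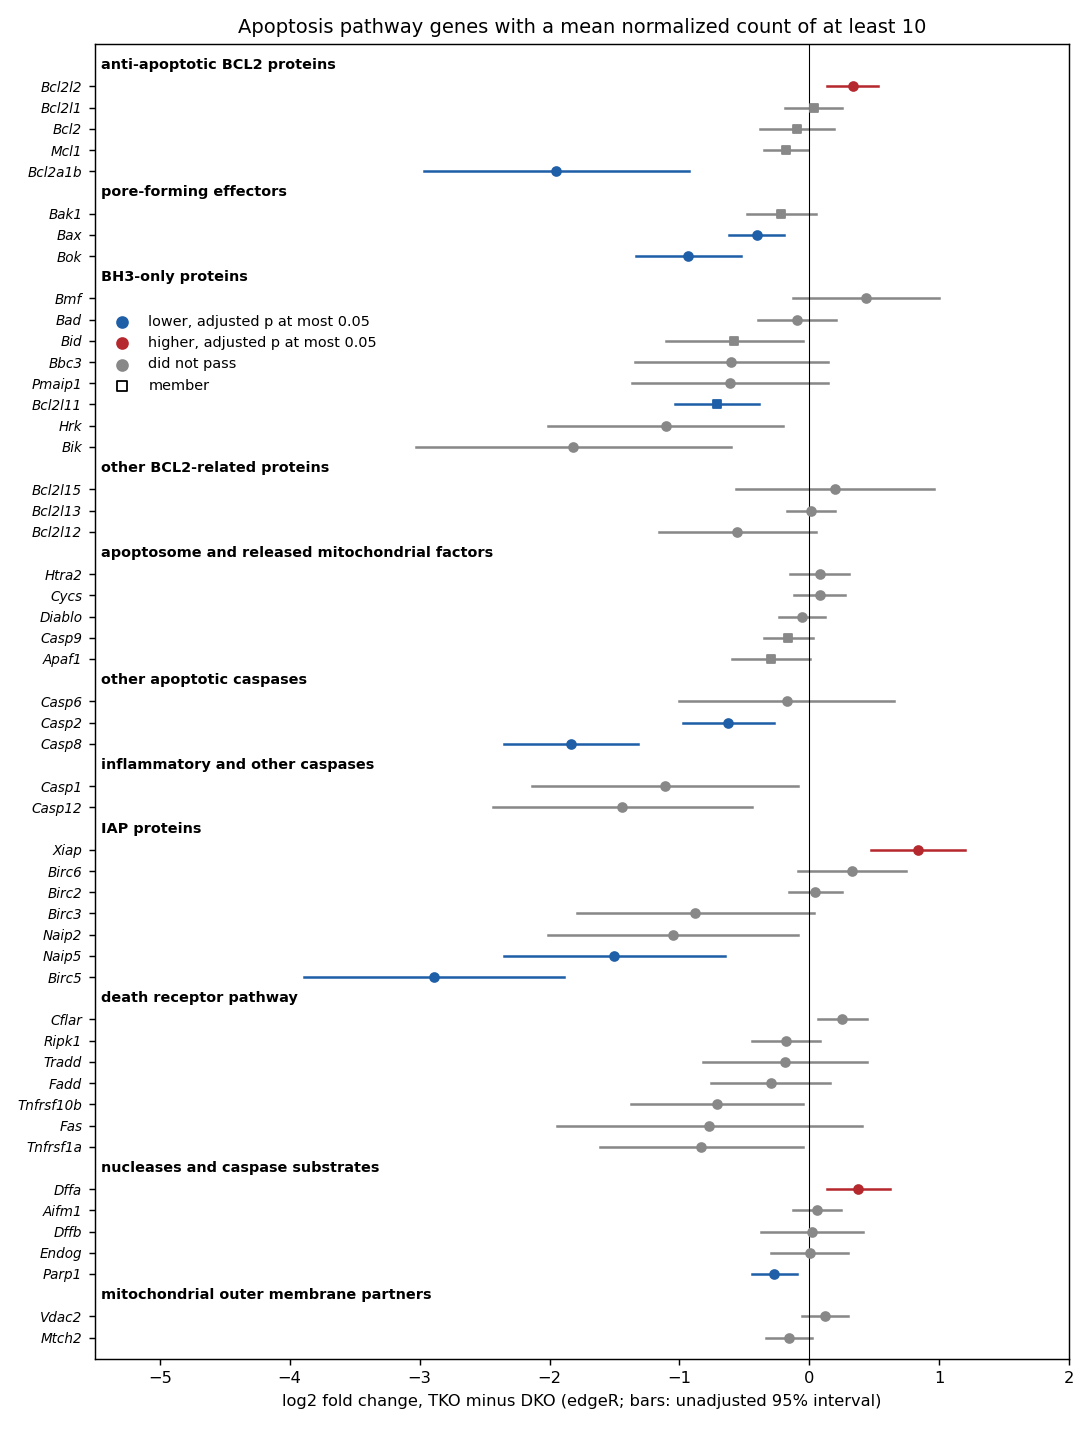
Log2 fold changes (TKO minus DKO, horizontal axis) of 50 of the 52 apoptosis genes with a mean of at least 10 normalized counts (the other 2 are not shown), in 11 role groups, with unadjusted 95% intervals from edgeR as bars and squares for the 8 genes named first. Called lower genes (blue) are Bcl2a1b, Bax, Bok, Bcl2l11, Casp2, Casp8, Naip5, Birc5 and Parp1, and the called higher genes (red) are Bcl2l2, Xiap and Dffa.

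Of the other anti-apoptotic genes, Bcl2l2 was higher and Bcl2a1b lower in TKO retinae. Bcl2l2, which encodes BCL-w, a survival protein of mature neurons, had 2779, 2912 and 2602 normalized counts in TKO retinae and 2042, 2182 and 2354 in DKO retinae, with no overlap. At 43.9 counts per kb of exon per 1e6 scaled counts it had the highest level of the group. TKO exceeded DKO retinae by 0.33 on the log2 scale (SE 0.0862, edgeR adjusted p = 0.0342). The adjusted p from edgeR was 0.0916, 0.131, 0.109 and 0.116 without TKO replicates 1 and 2 and DKO replicates 1 and 2, 0.155 with total counts only and 0.0692 with a term for Y-linked counts. Bcl2a1b, an A1 gene of blood and immune cells, had only 4, 5 and 11 counts in TKO against 27, 30 and 44 in DKO libraries. It differed by -1.95 on the log2 scale (edgeR adjusted p = 0.0227), and the adjusted p was 0.0729, 0.0923, 0.0588 and 0.0676 without the same 4 retinae in turn. The near-identical copies Bcl2a1a and Bcl2a1d can share reads with it, so its count is uncertain. Of the 8 microglial markers 5 were called lower in the same retinae, and their part in this difference was not tested.

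All 3 effector genes had every TKO retina below every DKO retina, and Bax and Bok passed the test while Bak1 did not. Bax, the effector that moves from the cytosol to mitochondria, had 434, 475 and 447 normalized counts in TKO and 589, 560.3 and 647 in DKO retinae. The log2 fold change was -0.41 (SE 0.0929, edgeR adjusted p = 0.0227). The adjusted p from edgeR rose to 0.0736, 0.0685, 0.0637 and 0.0577 without TKO replicates 1 and 2 and DKO replicates 1 and 2. Bok, a relative that forms pores independently of the guardians, had 97.5, 95.8 and 104 normalized counts in TKO and 211, 208 and 149 in DKO retinae, where replicate 3 was the lowest. For Bok the fitted log2 fold change was -0.93 (SE 0.176, edgeR adjusted p = 0.0125), and the adjusted p was 0.0593, 0.0555 and 0.0623 without TKO replicate 2, DKO replicate 1 and DKO replicate 2.

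Among the 8 BH3-only genes edgeR called Bcl2l11 alone and DESeq2 called Bcl2l11, Bik and Hrk, all lower, and the group's median log2 fold change was -0.61, with 7 genes below 0. Bad, a growth factor-regulated BH3-only protein with the highest level per length of this group, had a log2 difference of -0.10 (edgeR adjusted p = 0.65). The p53-responsive genes Bbc3 (PUMA) and Pmaip1 (NOXA) stood at -0.60 and -0.61 (edgeR adjusted p = 0.233 and 0.232), and Bmf at 0.44 (adjusted p = 0.252). Bik and Hrk, at -1.82 and -1.10 with low counts, had adjusted p of 0.0503 and 0.0913 from edgeR. These 5 genes were named after their values were seen, to account for the group.

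In the apoptosome group, 0 of 5 genes passed edgeR's test, 0 were called by DESeq2 and 0 had an unadjusted p under 0.05. Of all 16904 genes tested, at least 5559 had such an unadjusted p from edgeR. Cycs, which encodes somatic cytochrome c, had a log2 difference of 0.08 (edgeR adjusted p = 0.555), which turned to -0.08 with total counts only. The same 3 counts of 0 held for the 3 tested genes related to BCL2 but of other structure, where Bcl2l13 was at 0.01 (edgeR adjusted p = 0.924) and changed sign under 4 of 16 alternatives. They held too for the outer membrane partners Vdac2, a docking site of BAK, at 0.12 (edgeR adjusted p = 0.308; -0.04 with total counts only), and Mtch2.

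Of the other apoptotic caspases, Casp2 and Casp8 were lower in TKO retinae, and Casp6 stood at -0.17 on the log2 scale (edgeR adjusted p = 0.773), a value given after it was seen. Casp8, the initiator activated at death receptors, had 27.5, 33.7 and 46.6 normalized counts in TKO and 121, 138 and 124 in DKO retinae. A log2 difference of -1.83 (SE 0.225, edgeR adjusted p = 0.00603) passed without any 1 of the retinae, with an adjusted p of at most 0.0378 in these fits. Casp2, a caspase linked to DNA damage and cell division errors, had 388, 385 and 421 normalized counts in TKO and 707, 664 and 470 in DKO retinae. The genotypes differed by -0.62 on the log2 scale (SE 0.152, edgeR adjusted p = 0.0279). The adjusted p was 0.0832, 0.103, 0.0955 and 0.107 without TKO replicates 1 and 2 and DKO replicates 1 and 2, and 0.0586 with a term for Y-linked counts.

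Of the inflammatory and other caspases, 0 of 3 tested genes passed edgeR or DESeq2. An unadjusted p under 0.05 from edgeR was found for 2 of them, and for at least 5559 of all 16904 genes tested. Casp1, the caspase of inflammasomes, had 6.88, 12.6 and 16.0 normalized counts in TKO and 16.0, 22.8 and 38.0 in DKO retinae, a log2 difference of -1.11 (edgeR adjusted p = 0.124, and 0.0395 with a term for Y-linked counts). Without DKO replicate 3 it was -0.71 (edgeR adjusted p = 0.302). In the death receptor group 0 of 7 tested genes passed edgeR or DESeq2, with 1 higher and 2 lower at an unadjusted p under 0.05. Tnfrsf1a, the TNF receptor, had 217, 435 and 507 normalized counts in TKO and 510.1, 545 and 1003 in DKO retinae. TKO replicate 1 and DKO replicate 3 lay far from the rest of their groups. The difference of -0.83 on the log2 scale had an adjusted p of 0.131 from edgeR, of 0.00663 with a term for Y-linked counts, of 0.319 without DKO replicate 3, where the difference was -0.45, and of 0.283 without TKO replicate 1, where it was -0.55.

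The inhibitor of apoptosis (IAP) genes moved in both directions, with 1 higher and 3 lower of 10. Xiap, which encodes a direct inhibitor of caspases including that made from Casp9, had 5435, 4583 and 3413 normalized counts in TKO and 2665, 2430 and 2430 in DKO retinae. TKO replicate 1 was the highest and the groups did not overlap. The gain was 0.84 on the log2 scale (SE 0.157, edgeR adjusted p = 0.0123), and leaving out TKO replicate 2 or DKO replicate 2 gave an adjusted p of 0.0545 or 0.0594. Birc5 encodes survivin, an IAP family member best known as a subunit of the chromosomal passenger complex in dividing cells. It had 14.9, 23.2 and 47.9 normalized counts in TKO and 278, 233 and 123 in DKO retinae. The log2 fold change of Birc5 was -2.89 (SE 0.437, edgeR adjusted p = 0.00752), and with 1 retina left out the adjusted p was at most 0.0429. Naip5, of a family that senses bacterial proteins for inflammasomes, had 7, 6 and 7 counts in TKO against 25, 30 and 18 in DKO libraries (log2 fold change -1.50, edgeR adjusted p = 0.0291). Its adjusted p was 0.0783, 0.109, 0.0915 and 0.115 without TKO replicates 1 and 2 and DKO replicates 1 and 2, 0.0637 with a term for Y-linked counts, and 0.0509 from DESeq2, and its paralogs Naip1, Naip2 and Naip6 make the counts uncertain. Birc7 had 1, 2 and 2 counts in TKO against 8, 14 and 9 in DKO libraries, a ratio of 4.86 (DKO over TKO, exact 95% interval from 1.87 to 16.0 for counting error only), with an adjusted p of 0.0303 from edgeR. That p was 0.103, 0.0961, 0.0679 and 0.116 without the same 4 retinae, 0.0616 with a term for Y-linked counts and 0.0955 from DESeq2.

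Of the nucleases and caspase substrates, Dffa was higher and Parp1 lower, both by little. Dffa, which encodes the inhibitor of the DNA-cutting nuclease that caspases release, had 584, 574 and 512 normalized counts in TKO and 383, 461 and 441 in DKO retinae. Its rise was 0.38 on the log2 scale (SE 0.105, edgeR adjusted p = 0.0443). It lost the call without TKO replicates 1 and 2 and DKO retinae 1, 2 and 3 (adjusted p = 0.128, 0.146, 0.122, 0.0839 and 0.0604), with upper quartile scaling (0.057), with total counts only (0.166) and with a term for Y-linked counts (0.0666). Parp1, a DNA repair enzyme and a classic substrate of caspases, had 1399, 1487 and 1506 normalized counts in TKO and 1867, 1708 and 1724 in DKO retinae. Its difference was -0.27 on the log2 scale (SE 0.0756, edgeR adjusted p = 0.0439), and no fit with 1 retina left out kept the call, with adjusted p from 0.0534 to 0.136. With a term for Y-linked counts it was 0.0778.

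The amount of dividing-cell transcript ordered the retinae in the same way as some of these genes did. The 8 dividing-cell markers summed to 1570, 2417 and 4022 normalized counts in TKO retinae 1, 2 and 3 and to 15090, 12360 and 8051 in DKO retinae 1, 2 and 3. The 6 libraries stood in this same order for Bcl2l11 and Bak1 of the 8 genes, for Birc5 as well in the wider list, and for 3.38% of all genes tested. For Bcl2l11, TKO replicate 3 was thus the highest and DKO replicate 3 the lowest retina of its group. Casp8 did not follow the order within DKO retinae, where replicate 1, with the most dividing-cell transcript, had the lowest count. This order was looked at after the values had been seen, and the part of dividing cells in the differences was not tested.

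**Figure D4:**
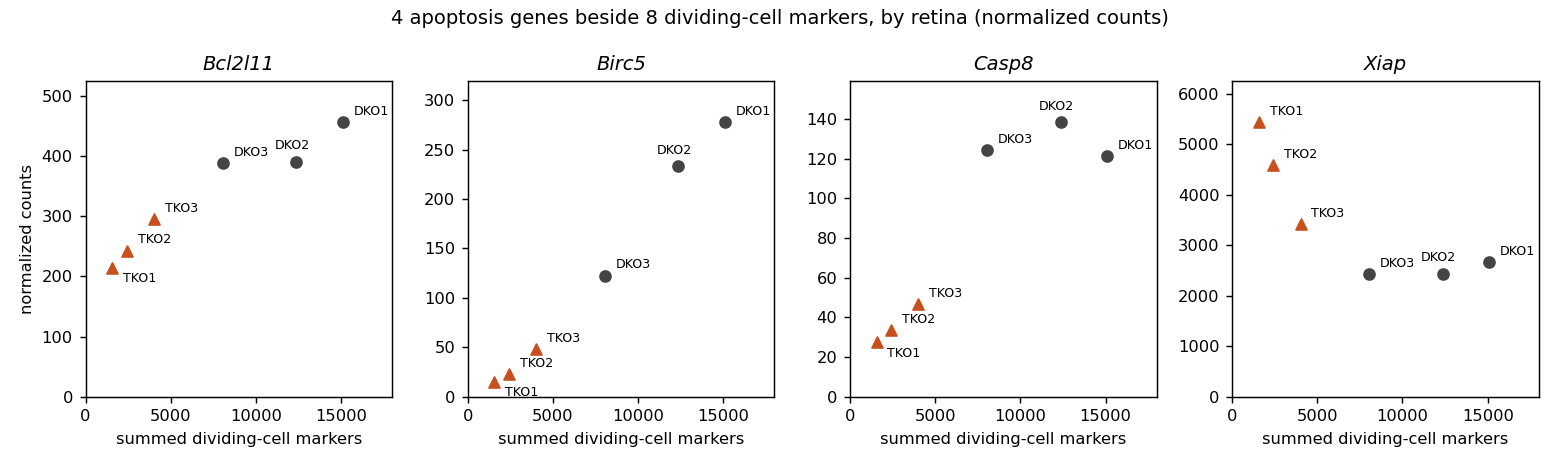
Normalized counts of Bcl2l11, Birc5, Casp8 and Xiap (vertical axes, from 0) against the summed normalized counts of 8 dividing-cell markers (horizontal axis) in each TKO (orange triangle) and DKO (grey circle) retina. For Bcl2l11 and Birc5 the 6 retinae stand in the order of the markers, Casp8 is level among DKO retinae, and Xiap is highest in TKO replicate 1, where the markers sum to 1570.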

How the data were processed

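RNA-seq was performed on 6 retinae at P21, 3 of them TKO and 3 DKO. The authors deposited raw read counts for 24062 genes, without normalization. The study's methods name STAR and HTSeq, whereas the submitters' processing notes name TopHat2 and featureCounts with mm10 (GRCm38). The library kit kept strand. Which of them made the deposited counts, and the strand setting, were not given in the sources used here.

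Library totals were 10343907 to 14203098 counts, and between retinae of a genotype the chi-square of their counts was 7.60 to 21.8 per degree of freedom, above sampling noise. A gene needed at least 10 counts over all libraries. Counts were compared with edgeR 4.0.16 in R 4.3.3 (TMM scaling, quasi-likelihood F test) and adjusted by Benjamini-Hochberg over 16904 genes. The test was checked on simulated data. Standard errors (SE) were derived from the fold change and its F statistic. A call needed an adjusted p of at most 0.05. DESeq2 1.42.0, the study's tool, was an alternative, beside other scalings, filters, robust dispersion, the replicate number as a block, a term for Y-linked counts (both groups hold both sexes), other thresholds and each retina left out in turn. Exon lengths and coordinates come from GENCODE vM21 (GRCm38) and promoters from RefSeq (GRCm38.p6).

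Genes were named by a rule: the 8 genes, every called gene of the apoptosis list and the gene with the highest level per length in each role. The rule also named Hells, Rb1 and Rbl1 to check the labels, and the 3 genes most like the member with the smallest p. Exceptions are marked, and some genes that the rule names are left out. The members and lists were chosen with earlier results of these data known.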

Additional observations from a re-analysis of the deposited data

How the results depend on the processing

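Of the 8 genes, 0 were called higher in any alternative. The count called lower was 3 with total counts only (Mcl1, Bcl2l11 and Casp9), 0 with the study's fold and mean count criteria, and 0 to 2 with 1 retina left out. In the apoptosis list the count called higher was 1 with total counts only, 1 with a term for Y-linked counts, 0 with the study's criteria and 0 to 3 with 1 retina left out. The count called lower was 4 with the study's criteria and 2 to 12 with 1 retina left out. Over all genes, 1 retina left out gave 214 to 1617 higher and 404 to 1973 lower calls. The log2 fold change of Bcl2l1 turned to -2.4e-05 with upper quartile scaling, -0.12 with total counts only and -0.011 with the Y-linked term, and was -0.052 to 0.081 with 1 retina left out. That of Bcl2l13 turned to -0.020 and -0.15 with the same scalings and was -0.031 to 0.063 with 1 retina left out. Cycs and Vdac2 turned to -0.083 and -0.037 with total counts only. The causes were not tested.

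The replicate numbers did not pair the retinae (correlations of 0.0412, -0.0438 and -0.121 between same-numbered deviations), and 1 of the 6 correlated best with its own number. With the number as a block, 0 of the 8 genes and 0 higher and 0 lower genes of the list were called, against 24 higher and 82 lower over all genes, and Bcl2l11 had an adjusted p of 0.0649 from edgeR.

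With 3 retinae a group, the unadjusted 95% intervals of Bcl2 and Bcl2l1 reach log2 differences of -0.38 and 0.25. Genes with few counts, such as Birc7, are limited by depth.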
